A study of Mus musculus with 8 samples.

Results

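Chemokine genes were followed in sorted lung epithelial cells of mice. The mice had inhaled lipopolysaccharide (LPS, from the outer membrane of Gram-negative bacteria) or its carrier, phosphate-buffered saline (PBS). The 10 genes were chosen by symbol, as secreted or membrane-bound chemokines: Cxcl1, Cxcl2, Cxcl5, Cxcl15, Cxcl16, Cxcl17, Ccl6, Ccl9, Ccl20 and Cx3cl1. Most are known from epithelial cells, while Ccl6 and Ccl9 are known from myeloid cells. All 10 were among the 13265 genes of the table, and all 10 passed its minimum of 30 unique molecular identifiers (UMIs, tags that let each captured molecule be counted once) over the 8 libraries, as did 12661 genes in all. The groups were 3 LPS libraries (s4, s14 and s18) and 5 PBS libraries (s1, s2, s6, s11 and s16), all from lungs of female C57BL/6 mice with no transgene or deletion, and the methods give young mice as 10 to 14 weeks old. The LPS group breathed an aerosol of PBS with LPS from Escherichia coli at 0.5 mg/ml, and the PBS group breathed PBS alone, in 3 sessions of 30 min each week over 10 weeks. Lungs were removed 48 h after exposure ended. From each sample 10000 cells that carried the epithelial surface protein EpCam and lacked CD31, of endothelium, and CD45, of blood cells, were sorted and sequenced at the 3′ end by bulk MARS-seq. The labels call the samples biological replicates, and a legend of the study names 3 LPS and 5 control mice as the source of the epithelial cells, as many as there are libraries in each group. The labels also speak of pooled samples in the making of the libraries.

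Chemokines are small proteins that draw cells along a gradient through receptors on the migrating cell. They are sorted into families by the spacing of the first cysteines of the mature protein: the pair is adjacent in the CC family, parted by a single residue in the CXC family and by several in the CX3C family. CXC ligands with the residues glutamate, leucine and arginine (ELR) just before the pair act on Cxcr2 and attract neutrophils, while many CC ligands act on monocytes, macrophages, dendritic cells and lymphocytes. In the lung, alveolar and airway epithelial cells are a known source of ELR chemokines after contact with bacterial products, and this transcription is driven by NF-kB.

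The family signature is shown for all 10 genes because it sets the order in which they are described. Each line gives 30 coding bases, read 5′ to 3′ on the strand of the gene from GENCODE transcripts on GRCm38 (mm10), with the cysteine codons of the signature in capitals. The 9 bases before the capitals encode glutamate, leucine and arginine in Cxcl1, Cxcl2, Cxcl5 and Cxcl15 and not in the other 6 genes. The stretch lies in exon 2, except in Ccl6 and Ccl9, where it lies in exon 3, and in Cxcl17, where it runs from exon 2 into exon 3 and its coordinates include the intron.
Cxcl1, chr5:90891487-90891516, plus strand: gagctgcgcTGTcagTGCctgcagaccatg
Cxcl2, chr5:90904133-90904162, plus strand: gaactgcgcTGTcaaTGCctgaagaccctg
Cxcl5, chr5:90759718-90759747, plus strand: gagctgcgtTGTgttTGCttaaccgtaact
Cxcl15, chr5:90795219-90795248, plus strand: gagctacgaTGTctgTGTattcaggaacac
Cxcl16, chr11:70459115-70459144, minus strand: gctggaagtTGTtctTGTgatcgtaccatt
Cxcl17, chr7:25402243-25402878, minus strand: ggccaagaaTGTgaaTGCaaagattggttc
Ccl6, chr11:83589371-83589400, minus strand: tcttcagacTGCTGCttctcttatgccaca
Ccl9, chr11:83575911-83575940, minus strand: tcttcagatTGCTGCctgtcctataactca
Ccl20, chr1:83117804-83117833, plus strand: aactacgacTGTTGCctctcgtacatacag
Cx3cl1, chr8:94778042-94778071, plus strand: atgacgaaaTGCgaaatcatgTGCgacaag

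The signature was searched with the spacing of the family that each symbol names, so the search set this spacing. A single codon parts the cysteine codons in the 6 CXC genes, 0 in the 3 CC genes and 3 in Cx3cl1. The 4 ELR genes form a cluster on chromosome 5, in the order Cxcl5 (90759298 to 90761625), Cxcl15 (90794534 to 90803067), Cxcl1 (90891245 to 90893121) and Cxcl2 (90903899 to 90905938), with 10777 bases between the last pair. Ccl9 (83572917 to 83578636) and Ccl6 (83587886 to 83593087) are neighbours on chromosome 11 with 9249 bases between them.

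Cxcl1 and Cxcl2 also share a match to an NF-kB motif near their start, shown because this factor is known to drive ELR chemokines. In the 250 bases before the start of RefSeq genes (GRCm38.p6), the motif GGGAA, any base, then TTCC was searched on both strands and was found in 93 of 32851 promoters (0.283%). Of the 7 chemokine genes that were matched to a promoter entry, Cxcl1 and Cxcl2 held it, on both strands at overlapping positions. The capitals below mark the match, which runs from -71 to -61 in Cxcl1 and from -97 to -87 in Cxcl2 relative to the start.
Cxcl1, chr5:90891149-90891208, plus strand: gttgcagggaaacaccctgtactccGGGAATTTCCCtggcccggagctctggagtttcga
Cxcl2, chr5:90903777-90903836, plus strand: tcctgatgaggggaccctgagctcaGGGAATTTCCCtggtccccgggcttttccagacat
The AP-1 motif TGANTCA, on both strands, was found in Ccl9 and in 6.75% of all promoters, the C/EBP motif TTGCNNAA, on both strands, in 0 of the 7 and in 9.56% of all, and TATAAA, on the forward strand, in Cxcl15, Ccl9 and Cx3cl1 and in 7.59% of all. Promoters of Cxcl5, Cxcl16 and Cxcl17 were not analysed here. A match is a stretch of letters and no measured binding.

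The sorted cells carried the transcripts of epithelium in both groups. Epcam was at 117 ± 16.8 CPM (UMIs per 1000000 UMIs of the TMM-scaled library; SD, n = 3) in LPS libraries and 122 ± 18.5 CPM (SD, n = 5) in PBS libraries, and all 10 epithelial markers and 13 alveolar type II markers were detected in every library. Pecam1 and Ptprc, the genes of CD31 and CD45, were detected too, at 124 ± 44.5 and 29.5 ± 7.17 CPM (SD, n = 3) in LPS libraries and at 118 ± 40.0 and 17.6 ± 10.8 CPM (SD, n = 5) in PBS libraries. Library totals were 2739340 to 4445431 UMIs in the LPS group and 2232727 to 2890560 UMIs in the PBS group, and 3 counts stood for 0.675 to 1.34 CPM. The PBS libraries were not alike. Libraries s1 and s2 were the closest pair (chi-square of 3.14 per degree of freedom over genes, against 8.62 to 25.7 for other PBS pairs). Libraries s6, s11 and s16 were not a close set, at 8.62 to 24.5 between them. LPS library s4 was nearer to s1 (8.38) than s6, s11 and s16 were (10.8 to 23.7). Calls of the 10 chemokine genes are given without s1 and s2, or without s6, s11 and s16, where that ended them. Over all libraries Ptprc was not called (log2 fold change 0.72, edgeR adjusted p = 0.34). Without s1 and s2 it was called higher in LPS libraries (1.39, edgeR adjusted p = 0.022), and without s6, s11 and s16 its log2 fold change was 0.11.

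Of the 10 chemokine genes 3 were called higher in LPS libraries, namely Ccl6, Cxcl17 and Ccl9, and 0 were called lower. A call needed an adjusted p under 0.05 in edgeR's quasi-likelihood test over all tested genes and a fold change over 1.25. By the same rule 1.46% of all tested genes were called higher and 0.569% lower, 2.03% in both directions. DESeq2 and limma-voom called 0 of the 10 lower as well, and the 5 with an unadjusted edgeR p under 0.05 all lay higher. Among all 12661 tested genes the edgeR p of Cxcl5, 0.0235, ranked 1514 and that of Ccl20, 0.0947, ranked 3280. At least 1514 and fewer than 3280 genes thus had an edgeR p under 0.05, and counts at this threshold in the lists below stand beside that. In the 3 called genes every LPS library lay above every PBS library, as it did in 8.52% of all tested genes, and in 0 of the 10 every LPS library lay below every PBS library, as it did in 5.86% of all. The median log2 fold change, LPS over PBS, was 0.89 over the 10 genes and -0.02 over all tested genes, and 7 of the 10 were positive and 3 negative, against 47.3% and 52.7% of all. The 10 genes were chosen with results of these libraries known, so that these counts describe them and test nothing about them as a set. The calls were not equally firm: that of Ccl6 held in each of 8 fits with 1 library left out, that of Cxcl17 ended in 7 of them and that of Ccl9 in all 8.

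**Figure D1:**
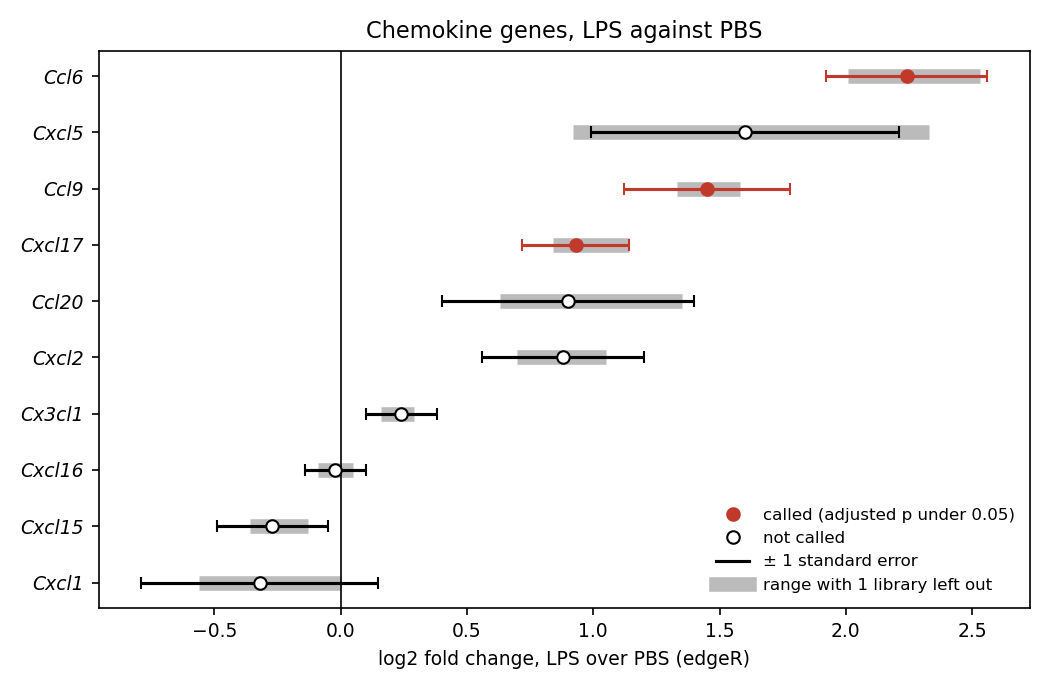
Log2 fold change, LPS over PBS, of the 10 chemokine genes from edgeR (horizontal axis), with 1 standard error as the thin bar and the range over 8 fits with 1 library left out as the grey band. The 3 called genes (filled) run from 0.93 in Cxcl17 to 2.24 in Ccl6, and the grey band of Cxcl5, from 0.92 to 2.33, is the widest.

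Ccl6, a CC chemokine of mice that macrophages and other myeloid cells are known to make and that acts on Ccr1, showed the largest difference of the 10. It was at 504.5, 215 and 449 CPM in LPS libraries s4, s14 and s18. In PBS libraries s1, s2, s6, s11 and s16 it was at 39.7, 115, 82.9, 72.4 and 103 CPM. All 3 LPS libraries lay above all 5 PBS libraries, and the gap was widest in s4 and s18 and narrowest in s14. On the log2 scale the fold change was 2.24 ± 0.32 (standard error, as for all log2 fold changes below), a fold of 4.72, with an edgeR adjusted p of 0.0064. It stayed between 2.01 and 2.53 with any single library left out (edgeR adjusted p up to 0.037, without LPS library s4). The last 500 bases of its transcript shared 19 of 471 windows of 30 bases with Slc17a4 on the same strand. Reads wholly within such stretches may not have mapped uniquely, which was not tested.

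Macrophage markers lay higher in the same LPS libraries, although the sort was against CD45. Of 33 listed markers 30 were in the table and tested, and 17 were called higher and 0 lower (20 higher by DESeq2 and 15 by limma-voom). The log2 fold changes of all 30 were positive (median 1.52), 29 were detected in every library and 0 were at 0 throughout. Their summed level was 3026, 1566 and 2240 CPM in LPS libraries s4, s14 and s18, against 573 to 987 CPM in PBS libraries. The ranges did not overlap, and s14 was the lowest LPS library for the summed level as for Ccl6. That order did not hold for every marker. Chil3 and Ctss, which are abundant, were lowest in s14 among LPS libraries. C1qa and C1qb were instead highest in s14, and Trem2 and Adgre1 were lowest in s18. The count of markers called higher was 5 without LPS library s4, 7 without s18, 9 without PBS library s11 and 9 without s6, s11 and s16. Set against the summed markers of the same library, Ccl6 was at 16.7%, 13.7% and 20.04% in LPS libraries and at 6.92%, 11.6%, 12.5%, 9.30% and 12.4% in PBS libraries s1, s2, s6, s11 and s16. These ratios did not overlap either, but they depend on which markers are summed. Among the called markers the log2 fold change ran from 0.88 in Plet1 to 2.99 in Clec7a, with 2.32 in Ctss, against 2.24 in Ccl6. In bulk libraries more cells of a type and more RNA per cell cannot be told apart, and the part of macrophage RNA in the level of Ccl6 was not tested.

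**Figure D2:**
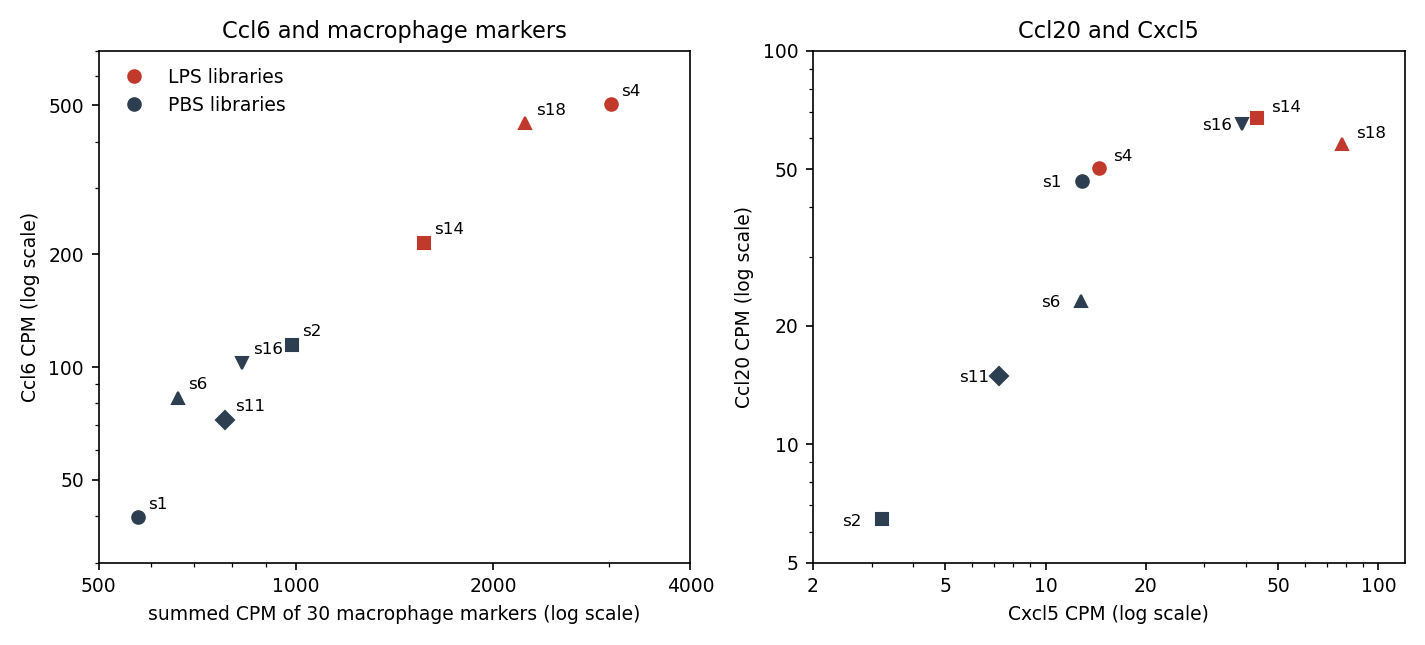
Each point is 1 library, red for LPS and dark blue for PBS, on log axes. Left, Ccl6 (CPM) against the summed CPM of 30 macrophage markers, where LPS libraries lie at 1566 to 3026 and PBS libraries at 573 to 987 along the horizontal axis; right, Ccl20 against Cxcl5 (CPM), where s2 is lowest in both and LPS library s4 and PBS library s1 lie side by side.

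By a rule of likeness, the root mean square difference of log2 CPM over the 8 libraries after each gene's mean was taken away, the genes closest to Ccl6 among 8253 genes at 10 CPM or more were Itgax (0.217), Ctss (0.276) and Cybb (0.396). Itgax encodes the integrin CD11c, Ctss the lysosomal protease cathepsin S and Cybb a subunit of the phagocyte NADPH oxidase. All 3 are on the macrophage list. Itgax was at 53.7 ± 19.9 CPM (SD, n = 3) in LPS libraries and 13.6 ± 7.12 CPM (SD, n = 5) in PBS libraries, and Ctss was at 410.5 ± 136 CPM and 82.0 ± 26.8 CPM in the same groups.

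Ccl9, the neighbour of Ccl6 on chromosome 11 and likewise a ligand of Ccr1 known from myeloid cells, was the least abundant of the 10. It had 20, 14 and 22 UMIs in LPS libraries s4, s14 and s18, which is 4.80, 4.90 and 4.89 CPM. In PBS libraries s1, s2, s6, s11 and s16 it had 6, 7, 5, 2 and 3 UMIs, or 2.09, 2.26, 1.99, 0.965 and 1.21 CPM. The LPS libraries were nearly level and all above the PBS libraries, of which s11 and s16 were at or under 3 counts, so that the size of the fold change is uncertain. With a log2 fold change of 1.45 ± 0.33 it lay just inside the threshold (edgeR adjusted p = 0.0498). The call ended with DESeq2 (adjusted p = 0.056), with limma-voom (0.054), without the filter on low counts (0.053) and with each library left out (edgeR adjusted p from 0.056 to 0.16). It ended also without PBS libraries s6, s11 and s16 (log2 fold change 1.15, edgeR adjusted p = 0.18) and held without s1 and s2 (1.76, edgeR adjusted p = 0.038). Set against the summed macrophage markers it was at 0.159% to 0.313% in LPS libraries and 0.124% to 0.364% in PBS libraries, and these ranges overlapped. The genes closest to it in pattern among 8254 were Fos (0.157), a subunit of AP-1, Lgals3bp (0.187), a secreted glycoprotein that binds galectin, and C1ra (0.208), a protease of complement. Ccl9 had 2 to 22 UMIs per library, so that this likeness is uncertain. In its transcript 5 of 471 windows of 30 bases near the 3′ end were shared with Gm33246.

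Cxcl17, a secreted protein of mucosal epithelium, was called higher. It was at 348, 384 and 367 CPM in LPS libraries s4, s14 and s18, against 166, 147, 160, 192 and 298 CPM in PBS libraries s1, s2, s6, s11 and s16. The LPS libraries lay close together and above all PBS libraries, of which s16 stood highest. This was a log2 fold change of 0.93 ± 0.21 (edgeR adjusted p = 0.043), a fold of 1.90. The call held with DESeq2 (adjusted p = 0.0035) and limma-voom (0.039) and ended with each of the libraries but PBS library s16 left out in turn, with edgeR adjusted p from 0.059 without s1 to 0.17 without LPS library s14. Without s16 the log2 fold change was 1.14 (edgeR adjusted p = 0.0026), and without s1 and s2 it was 0.76 (edgeR adjusted p = 0.061).

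Markers of epithelial cell types were set beside Cxcl17. The summed markers of club and secretory cells, which line the airways, were at 17219, 27076 and 38781 CPM in LPS libraries s4, s14 and s18. In PBS libraries s1, s2, s6, s11 and s16 they were at 14653, 11746, 10694, 18180 and 65923 CPM, so that the PBS library with the most Cxcl17, s16, was also the highest in these markers. Of 17 club and secretory markers 0 were called by edgeR, 3 lay higher at an unadjusted p under 0.05, and DESeq2 called 1 and limma-voom 0. As a share of these markers Cxcl17 was at 0.946% to 2.02% in LPS libraries and 0.451% to 1.499% in PBS libraries, and the ranges overlapped. As a share of the 10 epithelial markers it was at 12.9% to 13.8% in LPS libraries and 5.88% to 11.5% in PBS libraries, with no overlap. Summed markers of ciliated cells, the other main cells of the airway lining, were at 6029, 6798 and 6020 CPM in LPS libraries s4, s14 and s18, against 4808, 3799, 2077, 3885 and 4516 CPM in PBS libraries s1, s2, s6, s11 and s16. Every LPS library lay above every PBS library, and s14 was the highest for these markers as for Cxcl17. All 12 ciliated markers had a positive log2 fold change (median 0.72), 0 were called by edgeR, 8 lay higher at an unadjusted p under 0.05, and DESeq2 called 2, Tppp3 and Dnaic1, and limma-voom 0. The part of airway cells in the level of Cxcl17 was not tested. The genes closest to Cxcl17 in pattern among 8253 were Dmkn (0.234), a secreted protein of epithelia, Mapre3 (0.238), which binds the growing ends of microtubules, and Vnn3 (0.243), of the vanin family. Mapre3 was called higher (log2 fold change 0.75, edgeR adjusted p = 0.044, and 0.065 without s1 and s2), and Dmkn (0.65, edgeR adjusted p = 0.093) and Vnn3 (0.88, edgeR adjusted p = 0.052) were not. Without s6, s11 and s16 Dmkn was called as well (0.84, edgeR adjusted p = 0.029).

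**Figure D3:**
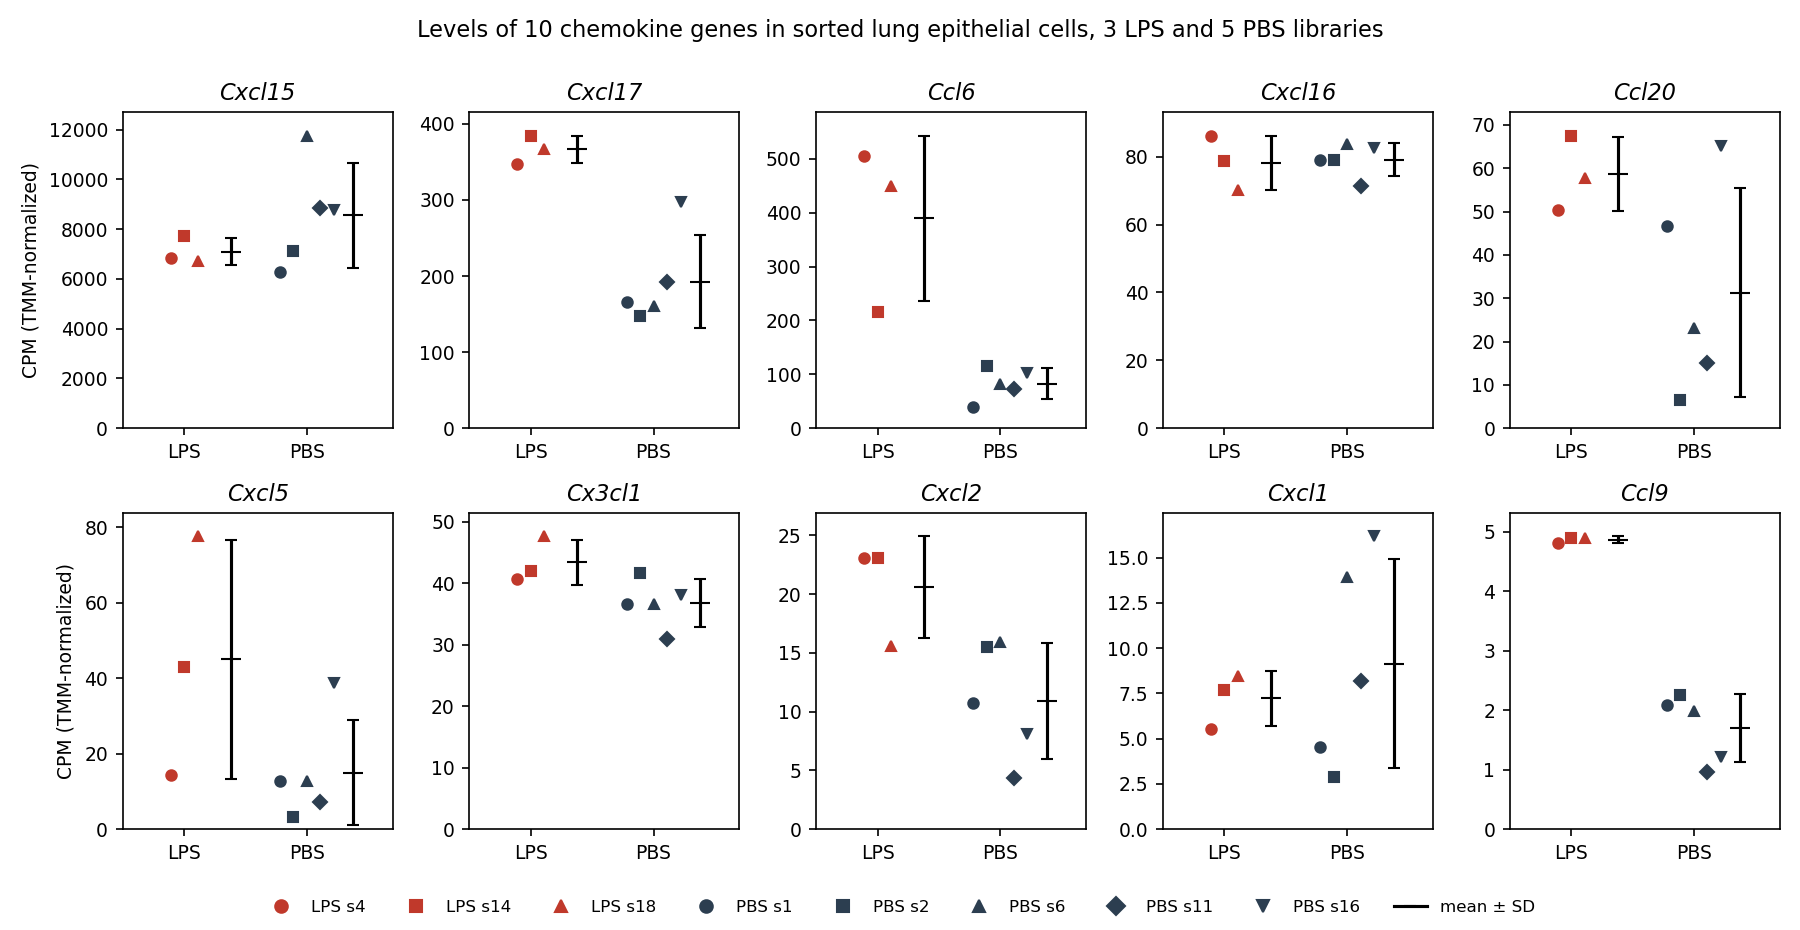
Level of each of the 10 chemokine genes (CPM after TMM scaling, vertical axis from 0) in the 3 LPS libraries (left, red) and the 5 PBS libraries (right, dark blue), with the group mean and SD in black. In Ccl6, Cxcl17 and Ccl9 every LPS library lies above every PBS library, and the PBS libraries of Cxcl5 span 3.23 to 38.8 CPM.

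The 4 ELR genes of chromosome 5, known as neutrophil attractants, were not called. Cxcl15, a mouse chemokine known for its restriction to lung epithelium, was by far the most abundant of the 10 genes and lay at percentile 99.9 of all tested genes by level. It was at 6857, 7723 and 6725 CPM in LPS libraries s4, s14 and s18, against 6263, 7139, 11766, 8847 and 8760 CPM in PBS libraries s1, s2, s6, s11 and s16. The LPS libraries lay within the PBS range, and s6 was the highest library. The difference of -0.27 ± 0.22 on the log2 scale was not called (edgeR adjusted p = 0.56). It was -0.46 without PBS libraries s1 and s2 and 0.09 without s6, s11 and s16, since s1 and s2, at 6263 to 7139 CPM, lay apart from the other 3 PBS libraries at 8760 to 11766 CPM. Summed alveolar type II markers, of the cells that make surfactant, were at 105522 to 112746 CPM in LPS libraries and 126313 to 182809 CPM in PBS libraries, without overlap. Most of this sum was Sftpc, at 69347 CPM on average in LPS and 101456 CPM in PBS libraries. Of the 13 markers 12 had a negative log2 fold change. EdgeR called 1 lower, Lyz1 (-1.53, edgeR adjusted p = 0.030), DESeq2 called 2 and limma-voom 1. The edgeR call of Lyz1 ended without LPS library s4 (edgeR adjusted p = 0.14), s14 (0.16) or s18 (0.064) and without PBS library s11 (0.083). As a share of these markers Cxcl15 was at 6.10% to 6.85% in LPS libraries and 4.79% to 6.87% in PBS libraries, and the part of type II cell RNA in its level was not tested.

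Cxcl5, which type II cells are known to secrete, was the most variable of the 10. It was at 14.4, 43.0 and 77.6 CPM in LPS libraries s4, s14 and s18, against 12.9, 3.23, 12.8, 7.24 and 38.8 CPM in PBS libraries s1, s2, s6, s11 and s16. Library s18 was the highest, but s4 lay below PBS library s16, and the groups overlapped. The log2 fold change of 1.60 ± 0.61 was the second in size after that of Ccl6 and was not called (edgeR adjusted p = 0.20). It was 0.92 without LPS library s18 (edgeR adjusted p = 0.58) and 2.33 without PBS library s16 (edgeR adjusted p = 0.051). From its lowest to its highest library Cxcl5 differed 12.03-fold within the PBS group and 5.38-fold within the LPS group, and the median of the PBS ratio over all tested genes at 2 CPM or more was 1.72.

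Cxcl1 and Cxcl2, the pair with the shared NF-kB match, were low. Cxcl2 was at 23.1, 23.1 and 15.6 CPM in LPS libraries s4, s14 and s18, against 10.8, 15.5, 15.9, 4.34 and 8.09 CPM in PBS libraries s1, s2, s6, s11 and s16. Libraries s4 and s14 lay above all PBS libraries, and s18 lay just below PBS library s6. Cxcl2 had a log2 fold change of 0.88 ± 0.32 and was not called (edgeR adjusted p = 0.18). Cxcl1 was at 5.53, 7.70 and 8.45 CPM in LPS libraries s4, s14 and s18, against 4.52, 2.90, 13.9, 8.20 and 16.2 CPM in PBS libraries s1, s2, s6, s11 and s16. The PBS libraries lay on both sides of the LPS libraries, with s1 and s2 below all of them. The log2 fold change of Cxcl1 was -0.32 ± 0.47 (edgeR adjusted p = 0.78), and the direction turned with the PBS libraries used, from -0.83 without s1 and s2 to 0.96 without s6, s11 and s16 (edgeR adjusted p = 0.24). Neutrophil markers, of the cells these ligands attract, summed to 765 to 1044 CPM in LPS libraries and 545 to 1468 CPM in PBS libraries. Of 11 tested neutrophil markers 0 were called by edgeR, 1 lay lower at an unadjusted p under 0.05, and DESeq2 called 1 and limma-voom 0.

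Cxcl16 and Cx3cl1, the ligands of Cxcr6 and Cx3cr1, are made as membrane proteins and can be shed as soluble chemokines by the proteases Adam10 and Adam17. Cxcl16 was at 86.0, 78.7 and 70.1 CPM in LPS libraries s4, s14 and s18, against 79.0, 79.0, 83.7, 71.4 and 82.5 CPM in PBS libraries s1, s2, s6, s11 and s16. It was the steadiest of the 10 genes over the PBS libraries, which differed by no more than 1.17-fold, and the groups overlapped over most of their range. For Cxcl16 the log2 fold change was -0.02 ± 0.12 (edgeR adjusted p = 0.96) and lay from -0.09 to 0.05 with 1 library left out. Cx3cl1 was at 40.6, 42.0 and 47.6 CPM in LPS libraries s4, s14 and s18, against 36.5, 41.6, 36.7, 30.9 and 38.0 CPM in PBS libraries s1, s2, s6, s11 and s16. LPS libraries s14 and s18 lay above all PBS libraries, and s4 lay just below PBS library s2. Cx3cl1 had a log2 fold change of 0.24 ± 0.14 (edgeR adjusted p = 0.40).

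Ccl20, the ligand of Ccr6 that draws dendritic cells and lymphocytes to mucosa, was at 50.4, 67.5 and 57.8 CPM in LPS libraries s4, s14 and s18. In PBS libraries s1, s2, s6, s11 and s16 it was at 46.6, 6.45, 23.1, 14.9 and 65.1 CPM. The LPS libraries lay close together, and only PBS library s16 reached their range. Its log2 fold change of 0.90 ± 0.50 was not called (edgeR adjusted p = 0.37), and the PBS libraries differed 10.1-fold. The order of the 5 PBS libraries was the same for Ccl20 as for Cxcl5, with s2 lowest, then s11, s6, s1 and s16. In Cxcl5, however, s6 and s1 were nearly level, at 12.76 and 12.87 CPM (32 and 37 UMIs). LPS library s4 was the lowest of its group in both genes, but the highest was s14 for Ccl20 and s18 for Cxcl5. These 2 genes lie on chromosomes 1 and 5, and the plot of Ccl20 against Cxcl5 shows the order. Msln, mesothelin of the lining of the lung surface, was also high in PBS libraries s1 and s16, at 105 and 87.3 CPM. Its lowest PBS library was s6 (11.6 CPM) and not s2 (16.8 CPM). The sum of the mesothelial markers was at 114, 174 and 145 CPM in LPS libraries s4, s14 and s18, against 115, 30.6, 16.3, 21.2 and 95.4 CPM in PBS libraries s1, s2, s6, s11 and s16, with 4 of 5 listed markers in the table. Most of it was Msln, at 137 ± 33.7 CPM (SD, n = 3) in LPS libraries and 47.0 ± 45.5 CPM (SD, n = 5) in PBS libraries (log2 fold change 1.53, edgeR adjusted p = 0.21). The only other tested marker of the list, Upk1b, was highest in s2 among PBS libraries. It was at 7.93, 2.80 and 6.23 CPM in LPS libraries s4, s14 and s18, against 9.74, 11.3, 2.39, 6.27 and 7.28 CPM in PBS libraries s1, s2, s6, s11 and s16 (log2 fold change -0.37, edgeR adjusted p = 0.71). Summed club and secretory markers rose from LPS library s4 to s14 to s18, as Cxcl5 did, and were highest in s16 among PBS libraries. The other PBS libraries had another order than for Cxcl5 and Ccl20. As a share of these markers Cxcl5 was at 0.0837% to 0.200% in LPS libraries and 0.0275% to 0.119% in PBS libraries. Ccl20 was at 0.149% to 0.293% and 0.0549% to 0.318%, and both pairs of ranges overlapped. The part of other cells in the levels of Ccl20 and Cxcl5 was not tested.

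The levels of the 10 genes can be set side by side because each UMI stands for the 3′ end of 1 molecule, so that CPM was not divided by gene length, although capture may differ between genes. In LPS libraries the order of mean level was Cxcl15, Ccl6, Cxcl17, Cxcl16, Ccl20, Cxcl5, Cx3cl1, Cxcl2, Cxcl1 and Ccl9. The ranges of Ccl6 and Cxcl17 overlapped, as did those of Ccl20 and Cxcl5 and of Cxcl5 and Cx3cl1. In PBS libraries the order was Cxcl15, Cxcl17, Ccl6, Cxcl16, Cx3cl1, Ccl20, Cxcl5, Cxcl2, Cxcl1 and Ccl9. Here the ranges of Ccl6 and Cxcl16 overlapped, and so did those of each neighbouring pair from Cx3cl1 to Cxcl1. Cxcl17 was above Ccl6 in all 5 PBS libraries and in LPS library s14, and below it in s4 and s18.

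Cxcl15 made up 87.4% ± 2.16 (SD, n = 3) of the summed UMIs of the 10 genes in LPS libraries and 94.7% ± 1.33 (SD, n = 5) in PBS libraries. The other 9 genes together took 13.6%, 10.1% and 14.03% in LPS libraries s4, s14 and s18, against 5.97%, 5.47%, 3.54%, 4.36% and 6.91% in PBS libraries s1, s2, s6, s11 and s16. The lowest LPS library thus lay above the highest PBS library. Without Cxcl15, Ccl6 took 37.5% ± 11.4 (SD, n = 3) of the UMIs in LPS libraries and 18.1% ± 6.46 (SD, n = 5) in PBS libraries. Cxcl17 took 36.7% ± 6.67 (SD, n = 3) in LPS libraries and 41.6% ± 5.27 (SD, n = 5) in PBS libraries. Cxcl16, with nearly the same CPM in both groups, took 7.82% ± 1.36 (SD, n = 3) in LPS libraries and 17.8% ± 2.95 (SD, n = 5) in PBS libraries, since shares must sum to a whole. All 10 genes together were 0.791% to 0.896% of the UMIs of LPS libraries and 0.712% to 1.17% of those of PBS libraries, and these ranges overlapped.

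**Figure D4:**
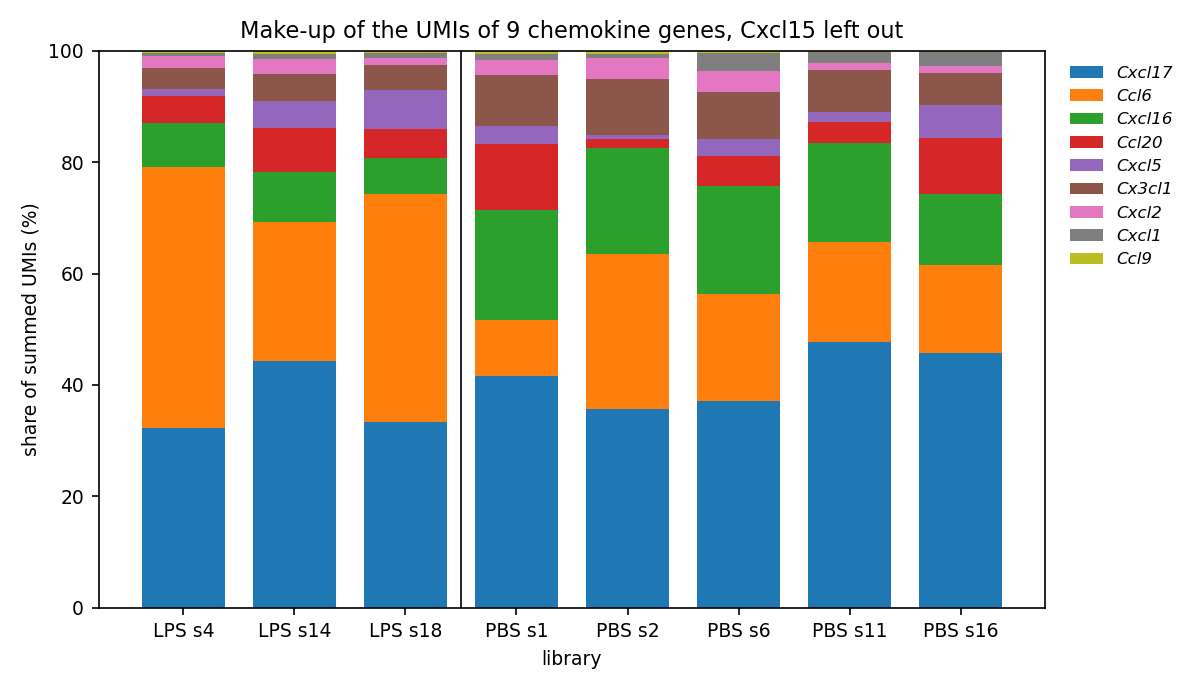
Share of the summed UMIs of 9 chemokine genes in each library (vertical axis, percent, Cxcl15 left out), with the 3 LPS libraries left of the line and the 5 PBS libraries right of it. Ccl6 takes 24.8% to 46.8% in LPS libraries and 9.97% to 27.8% in PBS libraries.

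Other genes of the chemokine system were taken from lists. Of 13 tested further ligands 1 was called higher and 0 lower, with a median log2 fold change of 0.33. The called ligand was Pf4, platelet factor 4, a CXC chemokine of platelets and macrophages. It was at 66.5, 41.6 and 70.1 CPM in LPS libraries s4, s14 and s18, against 24.4, 24.5, 26.7, 32.8 and 36.0 CPM in PBS libraries s1, s2, s6, s11 and s16. All LPS libraries lay above all PBS libraries, with s14 closest. Pf4 had a log2 fold change of 1.05 ± 0.20 (edgeR adjusted p = 0.023), and the call ended without LPS library s4 (edgeR adjusted p = 0.12), without s18 (0.13) and without PBS library s11 (0.056). Ccl3 and Ccl4, CC chemokines made by activated macrophages, were at 6.91 ± 3.06 and 1.90 ± 1.42 CPM (SD, n = 3) in LPS libraries and at 2.01 ± 1.37 and 0.719 ± 0.514 CPM (SD, n = 5) in PBS libraries, and were not called (log2 fold changes 1.77 and 1.36, edgeR adjusted p = 0.12 and 0.29). Ccl27a, a chemokine of epithelia, had a log2 fold change of -0.50 (edgeR adjusted p = 0.18).

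Receptors, proteases, inducers and feedback genes were not called by edgeR in either direction. Of 12 tested receptors 0 were called by edgeR, DESeq2 or limma-voom, 2 had an unadjusted p under 0.05 and the median log2 fold change was 0.09. Ccr6, the receptor of Ccl20, had a log2 fold change of -1.30 (edgeR adjusted p = 0.20), Ccr1, the receptor of Ccl6 and Ccl9, 1.03 (edgeR adjusted p = 0.34), and Ccrl2, an atypical receptor, 0.51 (edgeR adjusted p = 0.23). Of 8 genes of shedding and cleavage 0 were called by the 3 tools, 1 had an unadjusted p under 0.05 and the median was 0.03. Adam17, the sheddase of Cx3cl1, was at 49.4 ± 1.97 CPM (SD, n = 3) in LPS libraries and 57.8 ± 7.33 CPM (SD, n = 5) in PBS libraries (log2 fold change -0.22, edgeR adjusted p = 0.43). The protease gene Dpp4, which trims chemokines, had a log2 fold change of -0.67 (edgeR adjusted p = 0.14), and Sdc4, a syndecan, -0.29 (edgeR adjusted p = 0.40). Of 17 genes that induce epithelial chemokines 0 were called by the 3 tools, 0 had an unadjusted p under 0.05 and the median was 0.01, with log2 fold changes of -0.20 in Nfkb1, a subunit of NF-kB, 0.22 in Il17ra, a receptor of interleukin 17, and 0.35 in Cd14, a co-receptor of LPS (edgeR adjusted p = 0.45, 0.46 and 0.50).

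Of 12 genes of feedback and mRNA decay, which limit chemokine output, 0 were called by edgeR and limma-voom and 1 by DESeq2, 2 had an unadjusted p under 0.05 and the median log2 fold change was 0.26. The gene called by DESeq2 was Zc3h12a, which encodes an RNase that degrades inflammatory mRNAs. Its level was 33.2 ± 10.7 CPM (SD, n = 3) in LPS libraries and 14.9 ± 6.01 CPM (SD, n = 5) in PBS libraries, a log2 fold change of 1.14 ± 0.29 (edgeR adjusted p = 0.075, DESeq2 adjusted p = 0.017). Without PBS library s16 edgeR called it as well (log2 fold change 1.39, adjusted p = 0.024). Nfkbiz, a regulator of NF-kB target genes, had a log2 fold change of 0.77 (edgeR adjusted p = 0.20), and Irak3, an inhibitor of Toll-like receptor signalling, 0.89 (edgeR adjusted p = 0.32). Without PBS libraries s1 and s2 edgeR called 2 genes of these lists higher, Pf4 and Nfkbiz, and 3 lower, Ccl27a, Ccr6 and Dpp4. Without s6, s11 and s16 it called 2 higher, Pf4 and Cd14 (log2 fold change of Cd14 0.87, edgeR adjusted p = 0.029).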

How the data were processed

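Libraries of sorted lung epithelial cells were sequenced on a NextSeq 500 by bulk MARS-seq. The authors ran the User-friendly Transcriptome Analysis Pipeline on mm10, took reads that mapped uniquely at the 3′ ends of genes in RefSeq annotation release 109, and deposited raw UMI counts per gene, which were used for every value. For the aligner, name and version are not given in the sources used. Unique mapping can lower counts of genes with shared 3′ ends. The 16 further columns of values per sample and 7 columns of the authors' DESeq2 comparison (means, fold changes and p-values) were not used. Columns name the group and a library number, which the labels lack.

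Genes with at least 30 UMIs were normalized by TMM and tested, LPS against PBS, with edgeR 4.0.16 (glmQLFit, glmQLFTest) in R 4.3.3, with Benjamini-Hochberg adjustment. The standard error is the log2 fold change over the root of F. Log2 CPM used a prior count of 2. Alternatives were DESeq2 1.42.0, limma-voom (limma 3.58.1), DESeq2 size factors, other filters, no fold threshold, CPM without TMM, each library left out and either set of PBS libraries left out. The test was tried on simulated counts.

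All 10 chemokine genes are named. For each called one the 3 genes of nearest pattern at 10 CPM or more are named (predicted genes left out), and for the other lists the called genes and up to 3 with the smallest p, where a result turns on them. The genes and lists were chosen with earlier results of these data known. Sequences came from GENCODE on GRCm38 and from RefSeq.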

Additional observations from a re-analysis of the deposited data

Results flagged for a closer look

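Cxcl5 in PBS library s16, at 38.8 CPM, stood far from the other 4 PBS libraries, whose levels ran from 3.23 to 12.9 CPM. Its gap to the nearest of them was 0.729 of the range of the group, above Dixon's 95% critical value of 0.71 for 5 samples. This gap was taken on CPM and depends on the scale. On log2 CPM s16 was at 5.30 and the other PBS libraries at 1.96 to 3.76. Chance alone sets apart about 1 in 20 groups of normally spread values in this way, and the 10 chemokine genes give 10 such PBS groups.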

How the results depend on the processing

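No paired analysis was possible because the columns carry no replicate number of the labels. The number of chemokine genes called higher, 3, was 1 to 2 with 1 library left out, and 2 with DESeq2, with limma-voom, without the filter, without s1 and s2 and without s6, s11 and s16. The number of other pathway genes called higher, 1, was 2 with DESeq2, without s1 and s2 and without s6, s11 and s16, and 0 to 2 with 1 library left out. The number called lower, 0, was 3 without s1 and s2. Macrophage markers called higher, 17, were 9 without s6, s11 and s16 and 5 to 17 with 1 library left out.

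The log2 fold change turned in Cxcl1 (0.96 without s6, s11 and s16, and -0.56 to 0.00 with 1 library left out), Cxcl15 (0.09 without s6, s11 and s16), Cxcl16 (-0.09 to 0.05 with 1 library left out), Epcam (0.11 without s1 and s2, and -0.19 to 0.02 with 1 left out) and Pecam1 (-0.34 without s6, s11 and s16, and -0.22 to 0.30 with 1 left out), none of them called. Ccl9 was at 5.05 CPM in LPS libraries without TMM. Leaving Cxcl15 out of the sum gave mean shares of 37.5% in LPS and 18.15% in PBS libraries for Ccl6, and of 36.7% and 41.6% for Cxcl17. For the 10 genes, 135 of the log2 fold changes under alternatives kept direction and call, 20 lost the call and 5 turned. The causes were not tested. At these depths Ccl9 is limited by counts of 2 to 22 UMIs.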
